A study of Mus musculus with 9 samples.

Results

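The core cardiac transcription factors are Gata4, Gata6, Nkx2-5, Tbx5, Tbx20, Hand2, Mef2a, Mef2c, Srf and the coactivator Myocd. They were matched by gene name in the deposited RNA-seq count table, and made up 10 of its 55401 genes. All 10 were among the 16762 genes that passed the filter on low counts. The RNA came from primary cultures of neonatal mouse ventricular myocytes (NMVMs), the muscle cells of the lower heart chambers, taken from wild-type (WT) C57BL/6J mice at 1 day of age and grown in DMEM with 10% FBS. There were 3 groups of 3 libraries each. Control cultures stayed in normal oxygen and complete medium. Hypoxia cultures were moved to DMEM lacking glucose and serum and spent 6 h in a sealed AnaeroPack chamber, which takes up oxygen. Hypoxia + rSRGN cultures were handled in the same way, with recombinant serglycin (rSRGN), a secreted proteoglycan core protein, in the medium during those hours, at a dose not given in the sources used here. Low oxygen and the change of medium came together, so their effects cannot be told apart in any comparison with control. The labels do not say whether the libraries of a group came from separate isolations, and p-values then measure only the spread between these libraries, which may be technical.

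These factors form the network that sets up and maintains heart muscle. GATA4, NKX2-5 and TBX5 bind DNA side by side at cardiac enhancers and switch on contractile, ion channel and natriuretic peptide genes, while TBX20, HAND2 and the MEF2 proteins act with them in chamber growth and maturation. SRF binds the CArG box of muscle genes and of immediate early genes. Myocardin (Myocd) has no DNA-binding domain of its own for this site and joins SRF to drive the muscle genes. Gata4, Gata6, Tbx20 and Hand2 are also known from cardiac fibroblasts and other cells of the heart, whereas Nkx2-5 is largely a gene of heart muscle cells.

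The libraries held 16583985 to 22781557 counted fragments, and the control libraries (21669017 to 22781557) were deeper than those of hypoxia (16583985 to 18148474) and hypoxia + rSRGN (16640239 to 20826701). Between 23049 and 55623 of these fragments per library fell on the 10 factors. Every pair of libraries within a group differed by more than counting noise (chi-square of 3.63 to 13.1 per degree of freedom), and each library was counted as 1 sample. The highest values, 13.1 and 12.7, were those of hypoxia replicate 2 against replicates 1 and 3, with 6.68 between replicates 1 and 3. The muscle identity given by the labels was checked against 27 heart muscle genes, most of them contractile, calcium-handling, channel and natriuretic peptide genes, with the creatine kinase Ckm and myoglobin (Mb). Their summed level in control was 63638 to 72429 TPM, a level corrected for gene length and library size, led by Actc1, the cardiac actin gene (mean 14910 TPM), and Myh6, the heavy chain of cardiac myosin (mean 7948 TPM). The cultures were not pure, since 12 fibroblast markers summed to 4080 to 4600 TPM and 11 macrophage markers to 503 to 518 TPM in control.

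In hypoxia, 6 of the 10 factors were lower than in control and 0 were higher. Myocd and Nkx2-5 were left at 8.27% and 8.67% of their control level, Tbx5 at 14.5%, Mef2c at 43.5%, Gata4 at 53.7% and Tbx20 at 62.5%. Mef2a, Hand2, Srf and Gata6 kept between 67.1% and 90.0% and were not called. A gene was called where edgeR's quasi-likelihood test gave an adjusted p below 0.05 and the fold change was at least 1.5. By that rule 51.6% of all tested genes were called in either direction, 25.1% lower and 26.4% higher. The share of factors called in either direction is thus close to the background. All 6 calls were lower, however, beside 25.1% lower over all tested genes. At an unadjusted p under 0.05, edgeR had 9 factors lower and 0 higher, and DESeq2 called 7 lower and 0 higher. The median log2 fold change was -0.79 over the 10 factors and 0.054 over all tested genes. The plot of levels by library shows the 10 factors side by side.

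**Figure D1:**
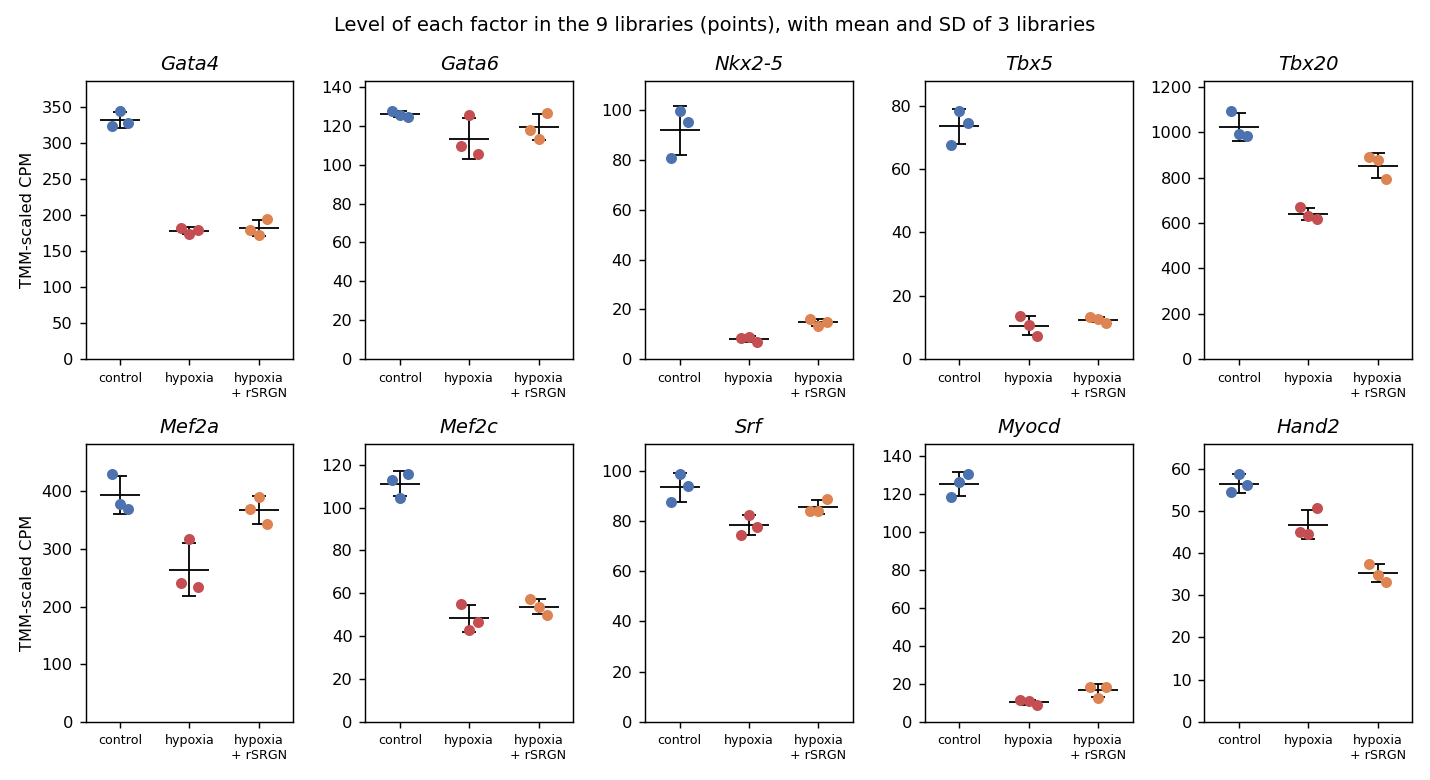
Level of each factor in CPM, the count relative to the library size after TMM scaling, with 1 point per library, a horizontal bar at the mean of 3 libraries and error bars of 1 SD; every vertical axis starts at 0. Nkx2-5 and Myocd lay between 80.9 and 131 CPM in control and at no more than 11.3 CPM in hypoxia, whereas Gata6 and Srf kept most of their level in all 3 groups.

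With rSRGN added under hypoxia, 2 of the 10 factors were called higher than in hypoxia alone and 0 lower. Nkx2-5 rose 1.86-fold and Myocd 1.60-fold, the factors that had been reduced most. Tbx20 (1.33-fold) and Mef2a (1.39-fold) also passed the adjusted p and lay above hypoxia in every library, but stayed under the fold limit, and Hand2 passed in the opposite direction, at 75.3% of its hypoxia level. At an unadjusted p under 0.05, edgeR had 4 higher and 1 lower, and DESeq2 called 2 higher and 0 lower. Over all tested genes 3.13% were called in this comparison, 2.27% higher and 0.859% lower. The medians were 0.19 over the factors and -0.029 over all tested genes. This comparison and that of hypoxia with control share the hypoxia libraries, so a deviation of those libraries moves their values in opposite directions. Without hypoxia replicate 3, Myocd was at a log2 fold change of 0.58 (adjusted p = 0.00893), just under the limit, 1 factor was called higher and the calls over all genes fell from 525 to 321. Without hypoxia replicate 2, Mef2a passed the limit too, and 3 factors were called higher.

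Against control, 6 of the 10 factors were called lower in hypoxia + rSRGN and 0 higher. Over all tested genes 24.7% were called lower and 24.1% higher, 48.8% in either direction. The 6 were Myocd (13.2% of control), Nkx2-5 (16.1%), Tbx5 (17%), Mef2c (48.3%), Gata4 (54.9%) and Hand2 (62.2%). Tbx20, called lower in hypoxia, was at 83.4% here and not called, and Hand2, not called in hypoxia, was called here. Mef2a (93.5%), Srf (91.5%) and Gata6 (94.7%) overlapped control.

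**Figure D2:**
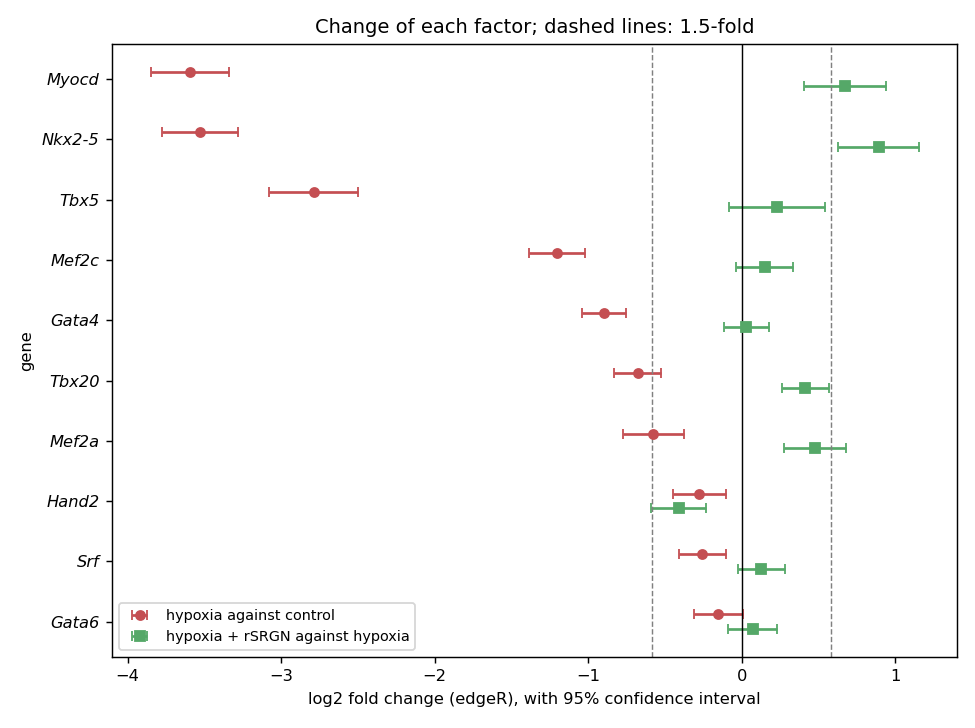
Log2 fold change of each factor from edgeR with its 95% confidence interval, for hypoxia against control (red circles) and hypoxia + rSRGN against hypoxia (green squares), with dashed lines at a 1.5-fold change. Hypoxia against control ran from -3.60 for Myocd to -0.15 for Gata6, and with rSRGN the values ran from -0.41 for Hand2 to 0.89 for Nkx2-5.

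Nkx2-5, a homeobox factor that is among the earliest markers of heart muscle, lies on chromosome 17 (26838664 to 26845009, minus strand, GRCm38). It had 80.9, 99.8 and 95.3 CPM in control, 8.43, 8.78 and 6.66 CPM in hypoxia and 16.1, 13.3 and 15 CPM in hypoxia + rSRGN. The 3 groups did not overlap, with control highest and hypoxia lowest. The log2 fold change from control to hypoxia was -3.53 ± 0.12 (SE, adjusted p = 8.67e-17), and 2.34% of all tested genes had a value as low or lower. From hypoxia to hypoxia + rSRGN it was 0.89 ± 0.13 (SE, adjusted p = 0.000122). The hypoxia value rests on 157, 152 and 115 counted fragments.

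The GATA factors bind the sequence that gives them their name and act with NKX2-5 and TBX5. Gata4 (chromosome 14, 63198922 to 63271692, minus strand) had 324, 344 and 327 CPM in control, 182, 173 and 179 CPM in hypoxia and 179.5, 173 and 194 CPM in hypoxia + rSRGN. Both hypoxic groups lay below every control library and overlapped each other. Its log2 fold change was -0.90 ± 0.070 (SE, adjusted p = 1.27e-10) in hypoxia and 0.032 with rSRGN, with a 95% interval of -0.11 to 0.18 and an adjusted p of 0.815. Gata6, the close relative of Gata4 on chromosome 18, had 128, 126 and 125 CPM in control, 109, 126 and 106 CPM in hypoxia and 118, 113 and 127 CPM in hypoxia + rSRGN. All 3 groups overlapped, and with all 9 libraries neither of its differences passed the test. In hypoxia it was -0.15 (95% interval -0.31 to 0.0062, adjusted p = 0.0795), and -0.23 without hypoxia replicate 2. With rSRGN it was 0.072 (95% interval -0.086 to 0.23, adjusted p = 0.575). The exons of Gata6 share 93 bases with Gata6os on the opposite strand, and fragments were counted without regard to strand, so the values of this pair are uncertain; Gata6os itself was at a log2 fold change of -0.64 in hypoxia (adjusted p = 0.000213).

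The T-box factors Tbx5 and Tbx20 differed in size of change. Tbx5, which marks the left ventricle and the conduction system and is mutated in Holt-Oram syndrome, lies on chromosome 5 (119832668 to 119885219, plus strand). Its level was 67.5, 78.3 and 74.4 CPM in control, 13.6, 10.7 and 7.41 CPM in hypoxia and 13.2, 12.7 and 11.5 CPM in hypoxia + rSRGN. Control stood apart from both hypoxic groups, which overlapped. In hypoxia the log2 fold change was -2.79 ± 0.14 (SE, adjusted p = 6.99e-14). With rSRGN it was 0.23 (adjusted p = 0.333), and the 95% interval of -0.084 to 0.54 still holds a rise close to the fold limit. The noncoding gene Gm43050, which lies next to Tbx5 without overlapping it, was at -3.61 in hypoxia (adjusted p = 7.37e-12), from 262, 273 and 216 counts in control to 18, 17 and 15 in hypoxia. Tbx20, a T-box factor needed for chamber muscle in the adult heart (chromosome 9, 24718138 to 24774303, minus strand), had 1095, 995 and 983 CPM in control, 669, 632 and 619 CPM in hypoxia and 892, 876 and 793 CPM in hypoxia + rSRGN. No groups overlapped, and hypoxia + rSRGN lay between the others. The log2 fold changes were -0.68 ± 0.075 in hypoxia (SE, adjusted p = 3.86e-08), 0.42 ± 0.074 with rSRGN (SE, adjusted p = 0.00074) and -0.26 in hypoxia + rSRGN against control (adjusted p = 0.00351).

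Hand2, a basic helix-loop-helix factor of the right ventricle and of fibroblasts (chromosome 8, 57320983 to 57324633, plus strand), was the 1 factor whose lowest level was in hypoxia + rSRGN. It had 54.6, 58.9 and 56.1 CPM in control, 45.0, 44.6 and 50.7 CPM in hypoxia and 37.5, 34.8 and 33.3 CPM in hypoxia + rSRGN. The groups fell in that order with no overlap. Its log2 fold change was -0.27 ± 0.084 in hypoxia (SE, adjusted p = 0.00622), -0.41 ± 0.087 with rSRGN (SE, adjusted p = 0.00262) and -0.68 in hypoxia + rSRGN against control (adjusted p = 3.02e-07). Only the last was past the fold limit. Hand2 shares 461 exon bases with Hand2os1 (Upperhand), a noncoding RNA of the opposite strand, so reads of the pair cannot be assigned with certainty. Hand2os1 fell from 1751, 1771 and 1717 counts in control to 783, 573 and 592 in hypoxia (log2 fold change -1.14, adjusted p = 9.35e-10) and had 553, 759 and 533 counts with rSRGN (-0.16 against hypoxia, adjusted p = 0.304).

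The MEF2 proteins are MADS-box factors that respond to calcium and stress kinases. Mef2c (chromosome 13, 83504034 to 83667080, plus strand) had 113, 105 and 116 CPM in control, 55.2, 43.0 and 46.7 CPM in hypoxia and 57.3, 53.7 and 50.1 CPM in hypoxia + rSRGN. The hypoxic groups overlapped each other and lay far below control. Its log2 fold change was -1.20 ± 0.088 in hypoxia (SE, adjusted p = 4.9e-11) and 0.15 with rSRGN (95% interval -0.036 to 0.34, adjusted p = 0.278). Mef2a (chromosome 7, 67231163 to 67372858, minus strand), the main MEF2 gene of the heart after birth, had 431, 379 and 369.8 CPM in control, 241, 317 and 234 CPM in hypoxia and 369, 391 and 343 CPM in hypoxia + rSRGN. Hypoxia lay below both other groups, which overlapped, and hypoxia replicate 2 was nearest to them. The log2 fold change of -0.57 ± 0.097 (SE, adjusted p = 1.69e-05) is a 1.49-fold fall, next to the limit, and it was past the limit without hypoxia replicate 2 (-0.73), control replicate 2 (-0.62), control replicate 3 (-0.63) or hypoxia + rSRGN replicate 3 (-0.59). With rSRGN it was 0.48 ± 0.097 (SE, adjusted p = 0.00193), and 0.63, past the limit, without hypoxia replicate 2. Mef2a shares 302 exon bases with Lysmd4 on the other strand, a gene of 430, 429 and 457 counts in control and 187, 147 and 202 in hypoxia, small beside the 7654 to 9590 counts of Mef2a in control.

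Srf and Myocd encode a DNA-binding factor and its muscle coactivator, and only the coactivator was called in hypoxia. Srf (chromosome 17, 46548329 to 46556175, minus strand) had 87.7, 99.0 and 93.9 CPM in control, 74.6, 82.5 and 77.8 CPM in hypoxia and 83.9, 84.0 and 88.9 CPM in hypoxia + rSRGN. Hypoxia lay under control without overlap, and hypoxia + rSRGN lay above hypoxia and overlapped control. The log2 fold changes were -0.26 ± 0.074 in hypoxia (SE, adjusted p = 0.00385) and 0.13 with rSRGN (95% interval -0.025 to 0.28, adjusted p = 0.259). Myocd (chromosome 11, 65176561 to 65269989, minus strand) had 118, 126 and 131 CPM in control, 11.3, 10.8 and 8.86 CPM in hypoxia and 18.5, 12.8 and 18.5 CPM in hypoxia + rSRGN. The 3 groups were apart, although hypoxia + rSRGN replicate 2 lay close to hypoxia. Its log2 fold change of -3.60 ± 0.12 in hypoxia (SE, adjusted p = 9.51e-17) was the largest of the 10, and 2.20% of tested genes fell as far. With rSRGN it was 0.67 ± 0.13 (SE, adjusted p = 0.00134).

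Upstream sequences from RefSeq (GRCm38.p6) were read for 6 of the 10 factors, Nkx2-5, Tbx20, Hand2, Mef2a, Mef2c and Srf, and not for Gata4, Gata6, Tbx5 and Myocd. The 250 bases before each start were searched on both strands for 6 motifs: the CArG box of SRF, the GATA motif, the MEF2 site, the NKX2-5 core, the E-box of HAND proteins and the core bound by the hypoxia-inducible factors. No T-box site was searched. The stretches of Srf, Nkx2-5 and Hand2 are shown because Srf is the factor that binds CArG boxes and was nearly kept, Nkx2-5 was among the most reduced and Hand2 alone passed the test as lower with rSRGN. Bases within annotated exons are left off the 3′ end, and positions count back from the RefSeq start. For Nkx2-5 that start (26841565) lies 3444 bases inside the gene as annotated in the count table, whose 5′ end is at 26845009, so the stretch shown is intronic in the longer gene model. Capitals mark CArG boxes in Srf and GATA motifs (GATA with A or T before it and A or G after it, on either strand) in Hand2; Nkx2-5 has none of the 6 motifs.
Srf, chr17:46556176-46556412, minus strand: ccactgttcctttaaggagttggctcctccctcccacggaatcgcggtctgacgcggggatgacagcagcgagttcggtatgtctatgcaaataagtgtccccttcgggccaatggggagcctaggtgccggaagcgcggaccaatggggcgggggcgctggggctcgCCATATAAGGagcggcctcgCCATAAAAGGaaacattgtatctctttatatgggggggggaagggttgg
Nkx2-5, chr17:26841609-26841815, minus strand: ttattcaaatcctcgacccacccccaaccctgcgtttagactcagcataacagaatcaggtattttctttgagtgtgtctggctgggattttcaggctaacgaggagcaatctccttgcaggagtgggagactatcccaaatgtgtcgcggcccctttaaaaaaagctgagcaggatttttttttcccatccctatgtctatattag
Hand2, chr8:57320733-57320982, plus strand: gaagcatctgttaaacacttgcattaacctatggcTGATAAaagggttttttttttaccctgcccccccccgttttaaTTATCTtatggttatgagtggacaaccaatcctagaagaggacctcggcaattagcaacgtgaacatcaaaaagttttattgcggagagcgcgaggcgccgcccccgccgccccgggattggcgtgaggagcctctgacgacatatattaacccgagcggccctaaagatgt
The Srf stretch holds 2 CArG boxes, at -82 to -73 and -62 to -53, and 1.47% of 32851 RefSeq promoters of this length hold at least 1. The Hand2 stretch holds 2 GATA motifs, at -215 to -210 and -172 to -167, found in 26.5% of promoters. It also holds 1 CATCTG, the E-box bound by HAND proteins (14.4% of promoters), 1 ACGTG, the core of the hypoxia response element (16.6%), and 1 AAGTG, the core of the NKX2-5 site (40.7%). Tbx20 held 1 ACGTG, Srf 1 AAGTG and each of the 3 Mef2c promoters 1 AAGTG, and the third of them also held 1 CATCTG. The MEF2 site, in 2.92% of promoters, was in none of the promoters read, and Mef2a held none of the 6 motifs. No match overlapped another, and a match is a run of letters, not a measured site.

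Levels of different genes were compared per length, in TPM. In control, Tbx20 (mean 255 TPM) and Gata4 (254 TPM) led and overlapped each other, followed by Nkx2-5 (159.7 TPM), Srf (96.5 TPM), Mef2a (80.0 TPM) and Hand2 (71.8 TPM), which overlapped, Myocd (58.2 TPM) and Gata6 (57.8 TPM), which overlapped, Tbx5 (46.9 TPM) and Mef2c (21.1 TPM). In hypoxia the order was Tbx20 (146 TPM), Gata4 (125 TPM), Srf (74.1 TPM), then Hand2 (54.6 TPM), Mef2a (48.9 TPM) and Gata6 (47.6 TPM), each overlapping its neighbour. Nkx2-5 (12.6 TPM) followed, and Mef2c (8.45 TPM), Tbx5 (6.21 TPM) and Myocd (4.40 TPM) came last and overlapped in turn. Nkx2-5 thus went from rank 3 to rank 7 and Myocd from 7 to 10. With rSRGN, Tbx20 (209.8 TPM), Gata4 (138 TPM), Srf (87.3 TPM), Mef2a (73.8 TPM), Gata6 (54.1 TPM), Hand2 (44.2 TPM), Nkx2-5 (25.5 TPM) and Mef2c (10.1 TPM) were apart from each other, and Tbx5 (7.85 TPM) and Myocd (7.62 TPM) overlapped. The 10 factors summed to 1072 to 1129 TPM in control, 506 to 549.7 TPM in hypoxia and 645 to 673 TPM in hypoxia + rSRGN. Of that sum Nkx2-5 took 12.9% to 15.4% in control, 2.06% to 2.59% in hypoxia and 3.51% to 4.13% in hypoxia + rSRGN, while Srf took 8.33% to 9.09%, 13.3% to 14.5% and 12.8% to 13.9%.

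Ratios within a library do not depend on its scaling, and were taken for 6 pairs of partners or relatives, which were chosen with the values known. The Nkx2-5 to Gata4 ratio of TPM was 0.568, 0.659 and 0.662 in control, 0.105, 0.115 and 0.0846 in hypoxia and 0.204, 0.176 and 0.175 in hypoxia + rSRGN. The Myocd to Srf ratio was 0.609, 0.575 and 0.627, then 0.0684, 0.0590 and 0.0513, then 0.0991, 0.0684 and 0.0937. For each pair control and hypoxia were apart, and with rSRGN both ratios lay above hypoxia in every library, although for Myocd to Srf hypoxia + rSRGN replicate 2 exceeded hypoxia replicate 1 by less than the digits shown. The mean log2 ratio of Nkx2-5 to Gata4 differed by -2.64 in hypoxia and by 0.87 with rSRGN, and that of Myocd to Srf by -3.35 and 0.54. In a two-sided exact permutation test over 3 libraries against 3 each of these gave p = 0.1, the smallest that the design allows, so no ratio could reach 0.05. Over the 12 tests of the 6 pairs the exact permutation p of 0.1 became 0.133 after Benjamini-Hochberg adjustment, with 0.48 and 0.7 for those that overlapped. Nkx2-5 to Tbx20 stood at 0.516 to 0.700 in control, 0.0751 to 0.0969 in hypoxia and 0.106 to 0.132 in hypoxia + rSRGN. The groups did not overlap, and the log2 differences were -2.86 in hypoxia and 0.49 with rSRGN (exact permutation p = 0.1 for both).

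The other pairs set relatives against each other. Tbx5 to Tbx20 stood at 0.158 to 0.202 in control, 0.0308 to 0.0523 in hypoxia and 0.0371 to 0.0379 in hypoxia + rSRGN, so that the hypoxic groups overlapped (exact permutation p = 0.7). Mef2c to Mef2a stood at 0.245 to 0.293, 0.127 to 0.214 and 0.128 to 0.145, again with overlap between the hypoxic groups (exact permutation p = 0.4). Gata6 to Gata4 was 0.219 to 0.237 in control and higher, 0.354 to 0.435, in hypoxia, and was 0.391 to 0.395 in hypoxia + rSRGN (exact permutation p = 0.7 against hypoxia). Against control the log2 differences of the 3 ratios in hypoxia were -2.16, -0.62 and 0.74, without overlap and with the smallest p of 0.1.

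**Figure D3:**
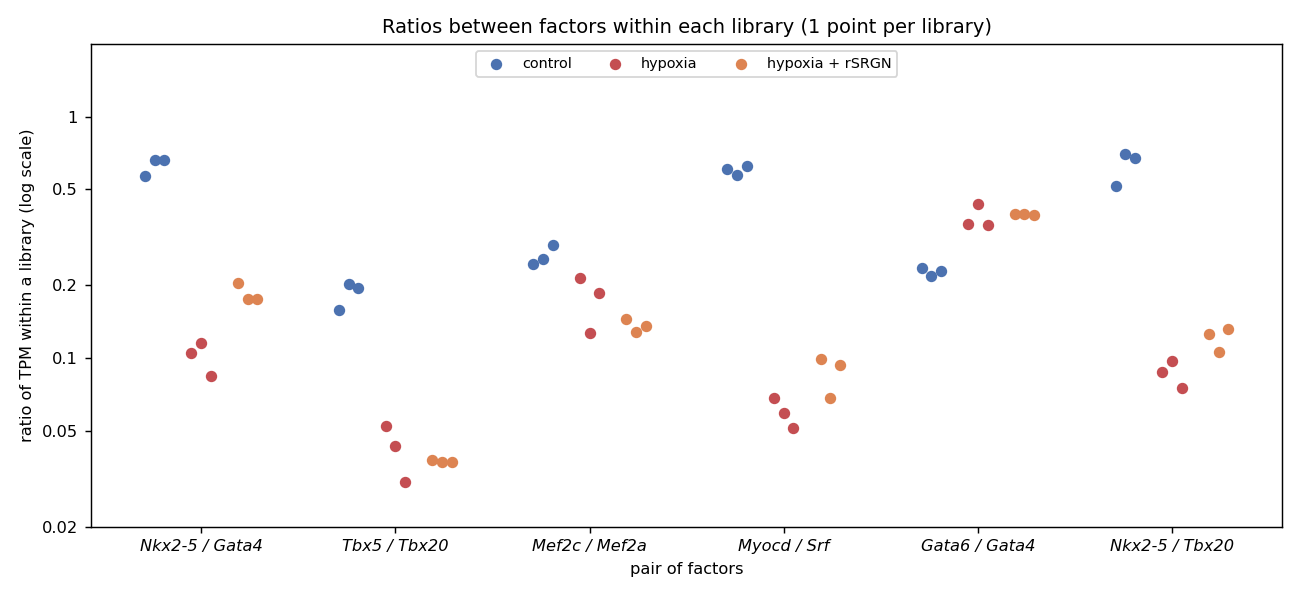
Ratio of TPM between the factors of 6 pairs within each library, on a logarithmic axis, with 1 point per library. Nkx2-5 to Gata4 and Myocd to Srf dropped from 0.568 to 0.662 and 0.575 to 0.627 in control to at most 0.115 and 0.0684 in hypoxia, and Gata6 to Gata4 rose from at most 0.237 to at least 0.354.

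Known target genes of these factors were lower in hypoxia as well. All 27 heart muscle genes of the list used above were called lower in hypoxia, where 25.1% of all tested genes were, with a median log2 fold change of -3.60 and a range from -4.95 for Myh7, a heavy chain of cardiac myosin, to -2.23 for the atrial light chain Myl7. Pln, the inhibitor of the calcium pump, was at -4.74. With rSRGN 21 of the 27 were called higher (2.27% of all tested genes) and 0 lower, with a median of 0.73, led by Nppa, the gene of atrial natriuretic peptide (1.03). Nppa had 1946, 2100 and 2312 CPM in control, 529.5, 266 and 251 CPM in hypoxia and 841, 706 and 596 CPM in hypoxia + rSRGN. The summed level of the list was 5042 to 8491 TPM in hypoxia and 11151 to 12723 TPM in hypoxia + rSRGN, so neither hypoxic group came near control. In bulk RNA, fewer muscle cells and less RNA of these genes per muscle cell cannot be told apart.

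Likeness between genes was measured as the distance between their pairs of log2 fold changes, the first in hypoxia and the second with rSRGN. Nkx2-5 and Myocd were each other's nearest factor, 0.23 apart. The nearest target gene to Nkx2-5 was Ckm, muscle creatine kinase (-3.54 and 0.90, distance 0.0090), and that to Myocd was Mb, myoglobin (-3.53 and 0.70, distance 0.074). Both distances are under the SEs of the factors' fold changes (0.12 to 0.13), so which target is nearest is not resolved. For Tbx5 the nearest target was the gap junction gene Gja1 (-2.55 and 0.41), at 0.30. The other 7 factors fell less in hypoxia than any target gene, of which Myl7 (-2.23) fell least. For each the nearest was Myl7, 1.10 (Mef2c) to 2.18 (Hand2) away, which mainly restates that smaller fall. Among themselves, Tbx20 and Mef2a (0.12), Gata6 and Srf (0.12), and Gata4 and Mef2c (0.33) were nearest to each other, Hand2 was 0.50 from its nearest factor, Gata6, and Tbx5 was 0.92 from its nearest, Myocd. Among other cardiac factors, Mef2a was nearest to Tead1, an effector of the Hippo pathway (-0.47 and 0.50, distance 0.11), and Hand2 to Hand1, its close relative (-0.49 and -0.41, distance 0.21), although Hand1 had only 7 to 30 counts per library and passed neither test.

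Markers of other cells moved in several ways beside the factors (values after a gene are log2 fold changes, and medians are over the list). Their counts stand beside 51.6% of all tested genes called in hypoxia, 25.1% lower and 26.4% higher, and 3.13% called with rSRGN. Of 12 fibroblast markers 8 were called higher and 0 lower in hypoxia (median 0.90), led by Thy1 (1.53) and Dcn (1.47), and their sum rose to 7452 to 9154 TPM, with 9301 to 9648 TPM in hypoxia + rSRGN. Between the hypoxic groups 1 was called, Tcf21, a bHLH factor of fibroblasts, which fell by 0.76 with rSRGN (adjusted p = 3.85e-05). Tcf21 had 113, 131 and 139.6 CPM in hypoxia and 77.8, 65.0 and 83.4 CPM in hypoxia + rSRGN. With rSRGN the fibroblast markers differed in sign: the list had a median of 0.060, with 2 higher and 2 lower at an unadjusted p under 0.05, and Ddr2, named after its values were seen, was at 0.35 (adjusted p = 0.00339), under the fold limit. Of 11 macrophage markers 10 were called lower in hypoxia (median -4.12, sum 43.7 to 51.0 TPM). C1qa was at -6.77, an uncertain size, since it had only 0, 0 and 1 counts in hypoxia. With rSRGN 0 macrophage markers were called by edgeR or DESeq2 (sum 55.6 to 68.7 TPM), with 2 higher and 0 lower at an unadjusted p under 0.05. Of 11 endothelial and endocardial markers 6 were lower and 2 higher in hypoxia (median -0.64). Their sum nevertheless went from 189 to 206 TPM in control to 312 to 395 TPM in hypoxia and 399 to 419 TPM with rSRGN, because Eng (1.32), which fibroblasts also carry, makes up most of it; with rSRGN 1 was called higher, Kdr (0.93). Of 7 smooth muscle and pericyte markers 1 was higher, Pdgfrb (0.67), and 1 lower, Abcc9 (-3.93), which heart muscle also expresses; the sum was 303 to 336 TPM in control, 205 to 234 TPM in hypoxia and 298 to 313 TPM in hypoxia + rSRGN, where Abcc9 (0.92) and Rgs5 (0.78) were called higher. No marker of these lists was at 0 in all libraries, and the part of changing cell types in the levels of the 10 factors was not tested.

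**Figure D4:**
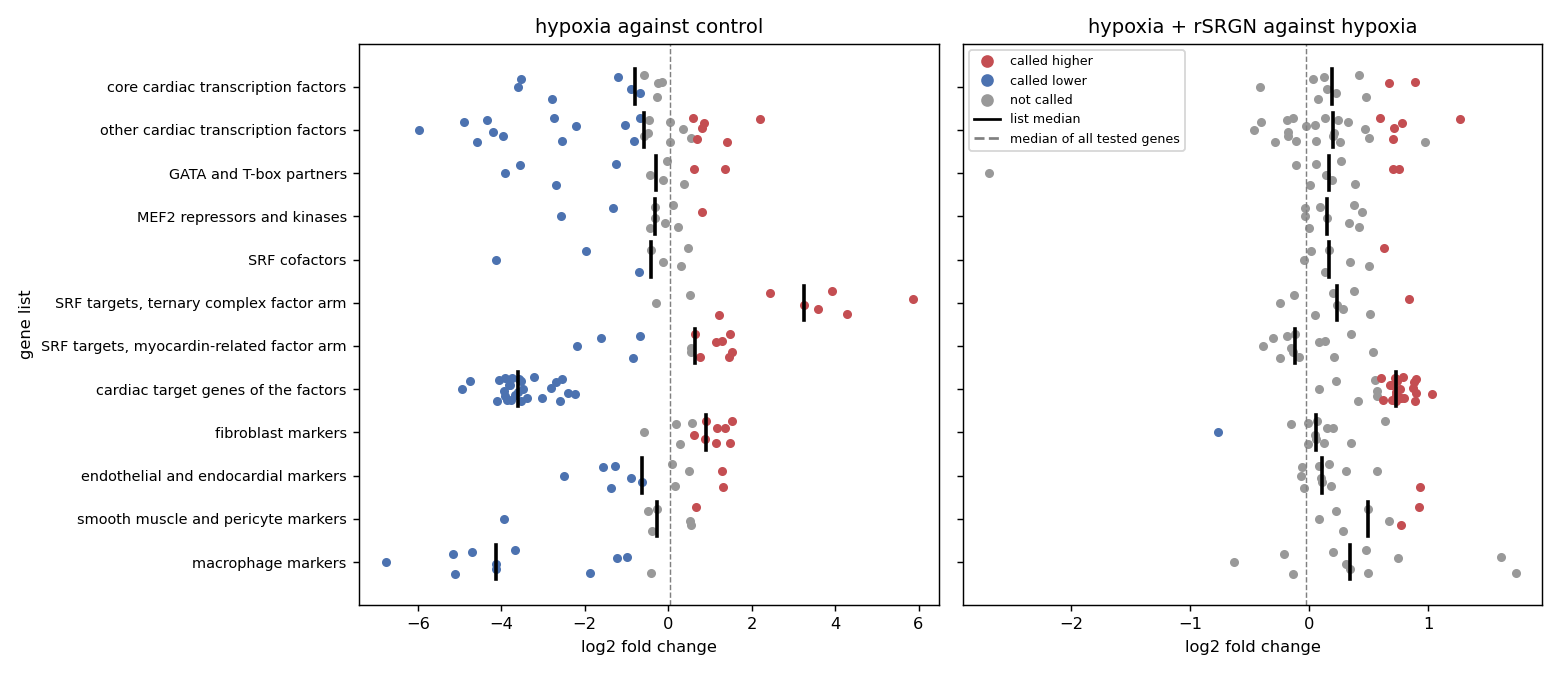
Log2 fold change of each tested gene in the 10 factors and 11 lists of related genes or markers, for hypoxia against control (left) and hypoxia + rSRGN against hypoxia (right), on axes of different scale. Red points were called higher, blue lower and grey not called; black bars are list medians and the dashed line is the median of all tested genes. The cardiac target genes had medians of -3.60 and 0.73, and the immediate early genes of SRF a median of 3.26 in hypoxia.

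Some other transcription factors of the heart fell further than any of the 10. Of 27 in the list 25 were tested, and in hypoxia 12 were called lower, 6 higher and 7 neither (median -0.57), beside 25.1% lower and 26.4% higher over all tested genes. Irx3, an Iroquois factor of the conduction system, fell by 5.97 on the log2 scale (adjusted p = 3.53e-19), from 116, 145 and 130.4 CPM in control to 1.72, 2.20 and 2.32 CPM in hypoxia. Irx4, the Iroquois factor of ventricular muscle, fell by 4.90 and Hopx, an antagonist of SRF that had the highest level of the list in control (mean 455 TPM), by 4.33. The largest rises were those of Isl1, a factor of cardiac progenitors (2.20), from 9, 18 and 16 counts in control to 58, 64 and 41 in hypoxia, and Gata5 (1.40). With rSRGN 5 were called higher, beside 2.27% of all tested genes, and 0 lower (median 0.20). Irx4 rose most (1.27, adjusted p = 0.00239), from 1.02, 1.79 and 0.637 CPM in hypoxia to 3.28, 2.70 and 2.38 CPM. The other 4, named after their values were seen, were Prox1 (0.78), Hopx (0.72), Tbx3 (0.71) and Esrrg (0.60), of which Esrrg overlapped hypoxia.

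Of 10 genes listed as partners of the GATA and T-box factors, 4 were lower and 2 higher in hypoxia (median -0.28), close to the 51.6% called over all tested genes. The list also holds Ldb3, a gene of the contractile apparatus. Smyd1, a muscle histone methyltransferase, fell by 3.92 on the log2 scale, with 709.8, 745 and 761 CPM in control, 61.2, 52.2 and 32.4 CPM in hypoxia and 87.8, 77.0 and 81.4 CPM in hypoxia + rSRGN. Ldb3, a Z-disc protein gene, fell by 3.55, and Smarcd3, the BAF60c subunit that lets TBX5, NKX2-5 and GATA4 reach chromatin, by 1.24. Sall4 was called lower on few reads, 16, 25 and 24 counts in control against 6, 2 and 0. The corepressor Tle3 (1.35) and Pdlim7 (0.61) were higher. With rSRGN Smyd1 (0.75, adjusted p = 0.000727) and Ldb3 (0.71, adjusted p = 0.000258) were called higher and 0 lower. Zfpm2 (FOG2), the cofactor of GATA4, was at 0.37 in hypoxia and 0.27 with rSRGN, under the fold limit. Zfpm1, Wwtr1 and Yap1 were not called in either comparison. Of these, Yap1 in hypoxia (-0.44, adjusted p = 0.000202) and Wwtr1 with rSRGN (0.38, adjusted p = 0.00144) missed only the fold limit.

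Regulators of MEF2 showed 2 lower and 1 higher of 9 in hypoxia (median -0.31), beside 51.6% called over all tested genes. They had 0 called with rSRGN by edgeR or DESeq2 (median 0.15), where 4 were higher and 0 lower at an unadjusted p under 0.05. Hdac9, a class IIa histone deacetylase that represses MEF2, fell by 2.57 on the log2 scale and Camk2d, the heart's main calmodulin kinase, by 1.31, and Hdac7 rose by 0.82. Camk2d had 309, 303 and 326 CPM in control, 135, 127 and 116 CPM in hypoxia and 169.7, 173 and 149 CPM in hypoxia + rSRGN. Hdac4 (-0.31), Hdac5 (-0.072), Mapk7 (0.24), Ppp3ca (0.10), Ppp3cb (-0.43) and Rcan1 (-0.33), a calcineurin target and inhibitor, were not called.

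Genes around SRF were grouped as cofactors, immediate early targets and cytoskeletal targets. Of 7 tested cofactors of 8, 3 were lower and 0 higher in hypoxia (median -0.40), against 51.6% of all tested genes called in either direction. The 3 were Csrp3 (-4.12), the muscle LIM protein, Fhl2 (-1.96), a LIM protein that binds SRF, and Mrtfb (-0.71). Mrtfa, the other myocardin-related factor, was at 0.31 and not called. With rSRGN 1 was called higher, Csrp3 (0.63, adjusted p = 0.003). Immediate early genes, which SRF serves with the ternary complex factors, went up: 7 of 9 were called higher and 0 lower in hypoxia (median 3.26), beside 26.4% higher over all tested genes. They were Fosb (5.86), Egr3 (4.29), Egr2 (3.93), Egr1 (3.58), Nr4a1 (3.26), Fos (2.43) and Junb (1.21), while Ier2 (0.51) and Mcl1 (-0.29) were not called. Egr1 had 52.2, 50.4 and 46.4 CPM in control, 544, 776 and 463 CPM in hypoxia and 579, 581 and 681 CPM in hypoxia + rSRGN, with overlap between the hypoxic groups. Egr3 alone was called higher with rSRGN (0.83, adjusted p = 0.00479), and DESeq2 called 0 of the list. At an unadjusted p under 0.05, edgeR had 4 higher and 0 lower with rSRGN.

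The cytoskeletal targets that SRF shares with the myocardin-related factors went both ways. Of 13, 7 were higher and 4 lower in hypoxia (median 0.64), and 0 were called with rSRGN by edgeR or DESeq2 (median -0.12), where 3 were higher and 4 lower at an unadjusted p under 0.05. Over all tested genes 51.6% were called in hypoxia and 3.13% with rSRGN. Ccn1, a matricellular protein gene (1.54), and Tagln (1.47) rose most, and Tpm1, the tropomyosin of the sarcomere (-2.17), and Myl9 (-1.62) fell most. Tpm1 had the highest level of the list in control, with a mean of 3320 TPM, and fell to a mean of 674 TPM, whereas Actb, next in level, was at 2225 and 2979 TPM and not called. Summed over the list the groups overlapped, at 10307 to 11049 TPM in control, 10198 to 11082 TPM in hypoxia and 10899 to 11394 TPM in hypoxia + rSRGN. For the immediate early genes the sum was 398 to 417, 886 to 1357 and 1219 to 1512 TPM in the same order.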

How the data were processed

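The table deposited by the authors holds raw fragment counts for every gene. Its header records featureCounts 2.0.1, GENCODE mouse release 25 (GRCm38) and no strand option, and the submitters' processing notes name HISAT2 and mm10. Libraries were grouped by their titles, and 0 columns were left unused.

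They were fitted with edgeR 4.0.16 under R 4.3.3 (filterByExpr, TMM scaling, 1 mean per group over all 9 libraries). The quasi-likelihood test was adjusted after Benjamini-Hochberg over the 16762 tested genes, and calls needed an adjusted p under 0.05 with a change of 1.5-fold or more. The fit was tested on simulated counts with 200 genes changed 2-fold. Per comparison 73% to 76% of them were called in the right direction, so a gene not called may still have changed. Between 2 and 6 unchanged genes were called. TPM used the gene lengths in the table. Ratios of TPM were compared with exact permutation tests. Lists are described by counts and medians, without a test of the list.

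The factors, lists and tests were chosen with earlier results of these data known. Lists of at most 10 genes could be named throughout. In longer lists the names are the 2 largest called rises and falls in hypoxia, the largest called rise and fall with rSRGN, the 2 highest control TPM and the nearest genes by likeness. Alternatives were RLE scaling, library size alone, DESeq2 1.42.0, no filter or at least 10 counts in every library, a fit limited to the groups compared, a replicate block, no fold limit, and each library left out in turn. Each factor had at least 115 counts in every library; 3 libraries per group limit the precision.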

Additional observations from a re-analysis of the deposited data

How the results depend on the processing

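Across 17 alternatives for each factor and comparison, 492 log2 fold changes kept their direction and their side of the call, 16 gained a call, 1 lost it and 1 changed sign. The sign change was that of Gata4 with rSRGN, 0.032 and never called, which ranged from -0.0072 without hypoxia + rSRGN replicate 3 to 0.071 without replicate 2 of that group. Of the 16 gains, 7 came from dropping the fold limit, which also moved the factors called with rSRGN from 2 to 4 higher and from 0 to 1 lower (Hand2), and all genes called from 525 to 2790. The other 9 were of Mef2a: its fall in hypoxia passed the limit with RLE scaling (-0.60), DESeq2 (-0.60), no filter (-0.63), only the groups compared (-0.59) and 4 libraries left out singly (-0.73 to -0.59), and its rise with rSRGN without hypoxia replicate 2 (0.63).

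With each library left out in turn, 6 to 7 factors were called lower in hypoxia and 1 to 3 higher with rSRGN. Calls over all genes ranged from 8496 to 8952 in hypoxia, 321 to 699 with rSRGN and 8028 to 8535 in hypoxia + rSRGN against control. Myocd with rSRGN ranged from 0.58 to 0.84, Nkx2-5 from 0.78 to 0.97 and Tbx5 from 0.031 to 0.46.

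Scaling moved the median of all genes by less than 0.1. The share of higher calls with rSRGN was 72.6% of 525 genes, 80.7% of 548 with RLE scaling, 66.9% of 519 with library size alone and 81.5% of 540 with DESeq2. With library size alone the median of the GATA and T-box partners in hypoxia was -0.22, and that of the fibroblast markers was 0.97 in hypoxia and 0.98 in hypoxia + rSRGN against control.

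Replicate numbers did not pair the libraries: deviations of libraries with the same number correlated at -0.073 to 0.073 over 9 pairs, and 3 of 9 libraries correlated best with their own number. With the replicate block 6 factors were called lower in hypoxia, 2 higher with rSRGN and 6 lower in hypoxia + rSRGN against control, and 8550, 495 and 8096 genes were called.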
